A study of Arabidopsis thaliana with 4 samples.

Results

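The genes described here encode the SR proteins and the hnRNP-like splicing regulators of Arabidopsis thaliana. They were chosen by locus from a list of 33 genes of these families. The rule uses no measured value, but the list was chosen with earlier results of these data known. All 33 genes were found among the 34133 loci of the table. The list holds 19 SR-type genes and 14 hnRNP-like genes in 11 subfamilies. The SR-type genes are 4 of the SR subfamily (SR34, SR30, SR34a, SR34b), 4 of the RS subfamily (RS31, RS31a, RS40, RS41), 5 of the SC and SCL subfamily (SC35, SCL28, SCL30, SCL30a, SCL33), 3 of the RSZ subfamily (RSZ21, RSZ22, RSZ22a), 2 of the RS2Z subfamily (RS2Z32, RS2Z33) and SR45. The hnRNP-like genes are GRP7, GRP8, PTB1 to PTB3, RBP45A to RBP45C, RBP47A to RBP47C and UBP1A to UBP1C.

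Messenger RNA was sequenced from seedlings of 10 days of age of the mutants prp31, zop1 and sta1 and of the wild type, all of the C24 accession, with 1 library for each genotype. Plants grew at 23 °C with 16 h of light and 8 h of dark. The products of PRP31 and STA1 belong to the snRNPs of the spliceosome, and the ZOP1 protein, which has a zinc finger, takes part in pre-mRNA splicing. The labels do not name the mutant alleles, any transgene in the C24 background, the number of seedlings in a library or the hour of harvest. Values are FPKM, fragments per kilobase of transcript scaled to 1000000 fragments mapped, so that levels can be compared between genes. With no replicate in any group, no difference has a replicate check, no p-value is given, and every statement is about these libraries.

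SR proteins carry RNA recognition motifs and a domain rich in arginine and serine, bind exonic sequences of the pre-mRNA and help recruit U1 snRNP and U2AF to splice sites. Proteins of the hnRNP kind bind other elements and often act against splice site use, so that the balance of both kinds bears on which splice site is taken. Plants have more SR genes than animals, several in subfamilies not found there. Many of the SR, GRP and PTB transcripts are themselves alternatively spliced, often into forms with an early stop codon that nonsense-mediated decay (NMD) removes. The deposited values are per gene, so they do not show which isoform was present.

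The members were read for annotated transcripts and introns, without a check for early stop codons or NMD. In the TAIR10.1 annotation they had a median of 3 transcripts per gene, against 1 over all 18631 protein-coding loci whose mean was at least 1 FPKM, and 25 of the 33 members (75.8%) had at least 2 transcripts, against 47.6% of those loci. The longest intron had a median length of 606 nt in the members and 287 nt over those loci. It was taken over all annotated transcripts of a gene, and the median number of introns was 6 in the members and 4 over those loci. An intron of at least 400 nt was annotated in 22 members (66.7%), against 32.7% of those loci. Among the 19 SR-type genes the median longest intron was 725 nt, and among the 14 hnRNP-like genes it was 475 nt. The longest intron of all was in RBP45B, with 1127 nt, and SCL30 had 1100 nt. RSZ22a had the shortest, 157 nt, with 1 annotated transcript.

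The library totals, read from the step size of low FPKM values and given in units of 1000000 reads, were 54.3 for prp31, 40.4 for zop1, 44.0 for sta1 and 48.9 for the wild type. The mutated genes were measured first. PRP31 had 16.4 FPKM in prp31 and 23.2 FPKM in the wild type, ZOP1 had 7.99 FPKM in zop1 and 14.1 FPKM in the wild type, and STA1 had 18.9 FPKM in sta1 and 14.1 FPKM in the wild type. PRP31 and ZOP1 were thus lower in their own mutant and STA1 was higher. Of the tissue markers, the light-harvesting gene LHCA1 had between 4357 FPKM in zop1 and 5281 FPKM in sta1, root markers were present, and the floral markers AP3, PI and AG stayed under 1 FPKM in every library. Since whole seedlings were ground, fewer cells that use a gene and less of its RNA per cell cannot be told apart in any value below.

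All 33 members were expressed at a mean of at least 1 FPKM, and 30 of them at a mean of at least 10 FPKM. In the wild type library the levels ran from 1.18 FPKM for SCL28 to 129 FPKM for RBP45B. RBP45B, a binder of U-rich RNA, was the most abundant member, with 133 FPKM in prp31, 132 FPKM in zop1, 135 FPKM in sta1 and 129 FPKM in the wild type. GRP8 and UBP1A followed in the wild type with 121 and 74.6 FPKM. The least abundant were SR34b with 8.48 FPKM, RS31a with 5.31 FPKM and SCL28 in that library. The 19 SR-type genes summed to 633 FPKM in prp31, 676 FPKM in zop1, 633 FPKM in sta1 and 647 FPKM in the wild type. The 14 hnRNP-like genes summed to 733 FPKM in prp31, 681 FPKM in zop1, 696 FPKM in sta1 and 724 FPKM in the wild type. The zop1 library had the highest SR-type sum and the lowest hnRNP-like sum of the 4 libraries, and the second rests on GRP8. Without GRP8 the other 13 hnRNP-like genes summed to 607 FPKM in prp31, 607 FPKM in zop1, 601 FPKM in sta1 and 603 FPKM in the wild type.

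**Figure D1:**
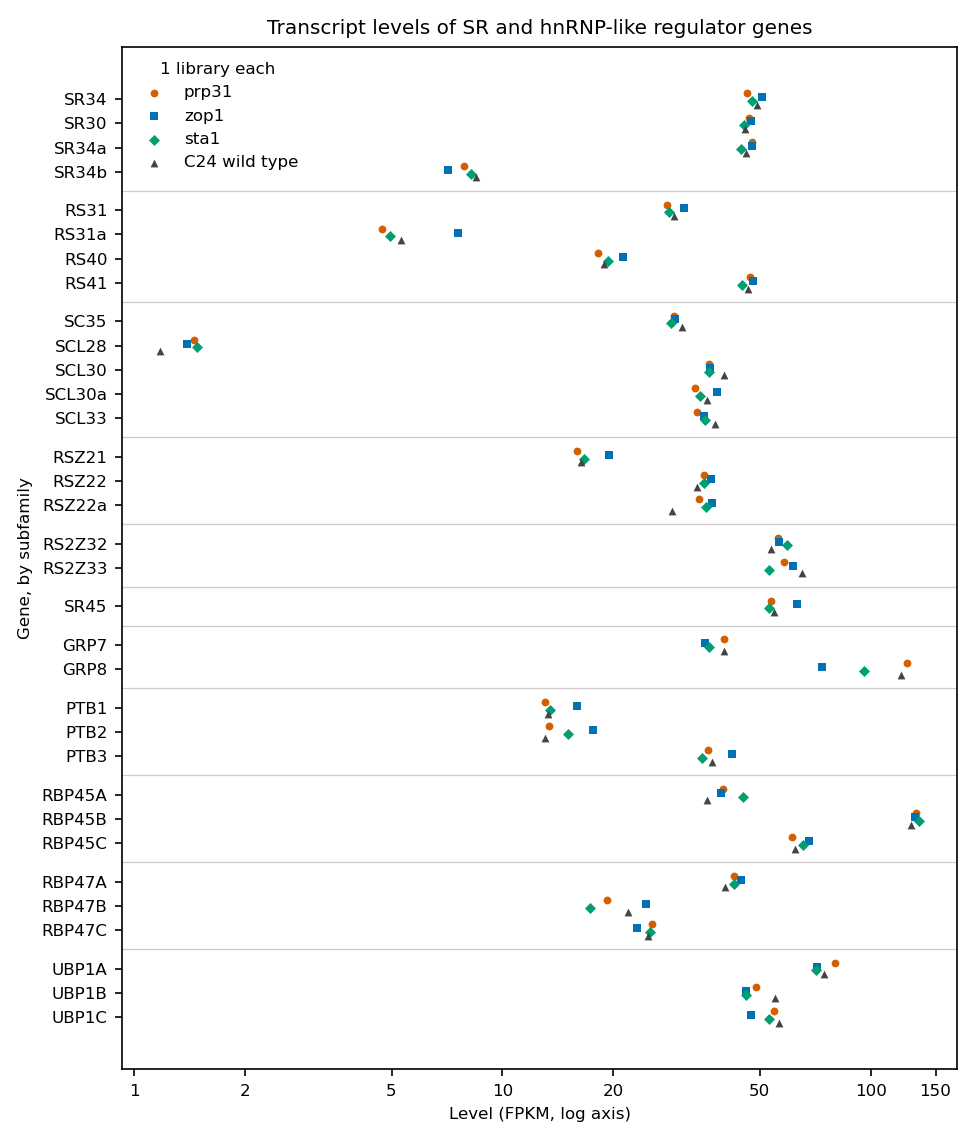
FPKM of each of the 33 genes in the libraries of prp31, zop1, sta1 and C24 wild type (x axis, log scale), with genes on the y axis by subfamily and 1 point per library. Points of a gene lie close together, and the widest spread is in GRP8, from 73.8 FPKM in zop1 to 126 FPKM in prp31.

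The members varied little between libraries. The ratio of the highest to the lowest library had a median of 1.15 over the 33 members, and 22 of them (66.7%) stayed under 1.2. Over the 10256 loci whose mean was at least 10 FPKM the median was 1.19, and 52.3% stayed under 1.2. Among members the ratio ran from 1.05 for SR30 to 1.70 for GRP8. The zop1 library held the highest value for 17 of the 33 members. The share of all loci that were highest in zop1 was not taken, so this count is not read as a trait of the members.

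Against the wild type a member was counted as higher or lower when log2(FPKM + 1) differed by at least log2 of 1.2, called 1.2-fold here. In prp31 0 of 33 members were 1.2-fold higher, where 5.89% of the 19240 loci whose mean was at least 1 FPKM were, and 0 were 1.2-fold lower, against 7.92% of loci. In zop1 3 members were higher (RS31a, RSZ22a and PTB2), against 14.3% of loci, and 1 was lower (GRP8), against 15.1% of loci. In sta1 2 members were higher (RSZ22a and RBP45A), against 9.65% of loci, and 3 were lower (RS2Z33, GRP8 and RBP47B), against 17.6% of loci. Past 1.2-fold in either direction were thus 0 of 33 members in prp31, 12.1% of them in zop1 and 15.2% in sta1. Over all loci the share was 13.8% for prp31, 29.4% for zop1 and 27.2% for sta1, and over loci whose mean was at least 10 FPKM it was 10.1%, 25.3% and 22.2% in the same order of mutants. No member reached 2-fold in any mutant, where 0.941% of loci did in prp31, 2.24% in zop1 and 1.98% in sta1.

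**Figure D2:**
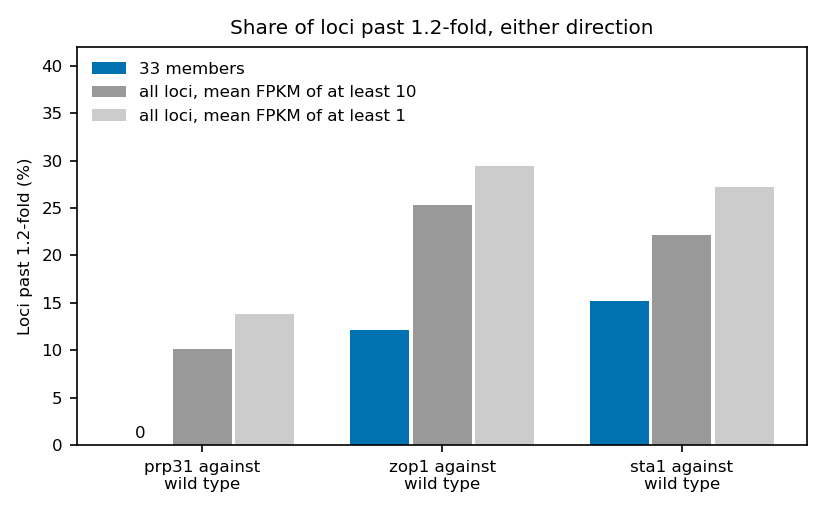
Percentage of loci past 1.2-fold in either direction (y axis) in prp31, zop1 and sta1, each against the wild type library, for the 33 members and for all loci at a mean of at least 10 or at least 1 FPKM. The bar of the members is the lowest of the 3 in each mutant, at 0 in prp31, 12.1% in zop1 and 15.2% in sta1.

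The median member difference was −0.03 on the log2(FPKM + 1) scale in prp31, 0.07 in zop1 and −0.04 in sta1, and the median of all loci was −0.02, −0.02 and −0.06 in the same order. The medians of prp31 and sta1 turn positive, to 0.00023 and 0.014, when libraries are scaled by the median of ratios. Members had an SD of 0.10 for prp31, 0.22 for zop1 and 0.15 for sta1, against 0.32, 0.43 and 0.42 over all loci. In zop1 22 members (66.7%) lay above the wild type value, against 46.6% of all loci. In prp31 15 members (45.5%) did, against 43.8% of loci, and in sta1 13 (39.4%) did, against 39.8% of loci, so both shares were near those of all loci. All 3 comparisons share the wild type library.

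Tissue markers differed between these libraries as well. In zop1 all 3 green tissue markers above 0 (LHCB1.3, LHCA1 and RCA) were lower than in the wild type, and their sum was 18734 FPKM in zop1, 22158 FPKM in prp31, 23577 FPKM in sta1 and 21751 FPKM in the wild type. The other green marker, RBCS1A, was listed at 0 in every library. Of the 4 root markers, COBL9, EXPA7 and MYB36 were 1.2-fold higher in zop1 and CASP1 was not, and the list summed to 78.3 FPKM in zop1, 66.1 FPKM in prp31, 59.9 FPKM in sta1 and 73.1 FPKM in the wild type. CASP1 was 1.2-fold lower in sta1. Of the 3 seed markers, all weakly expressed, CRA1 and CRC were 2-fold lower in zop1 and in sta1. In prp31 CRA1 was 2-fold lower and CRC 1.2-fold lower. OLEO1 was 1.2-fold lower in zop1 and 1.2-fold higher in sta1. The part of these tissue shifts in the values of the mutants given below was not tested.

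**Figure D3:**
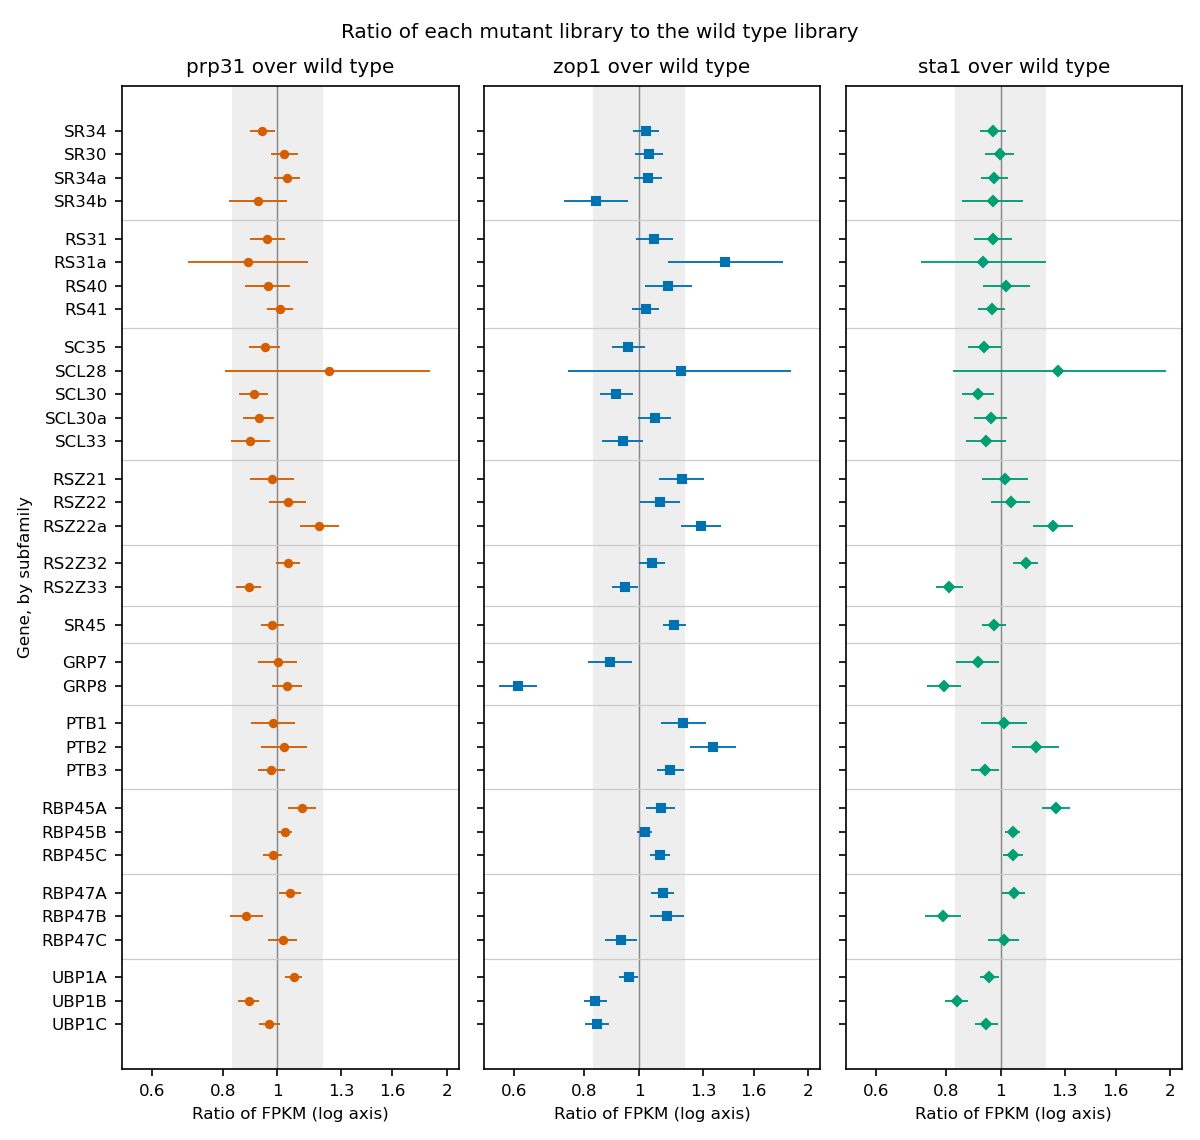
Ratio of FPKM of each mutant library to the wild type library (x axis, log scale) for the 33 genes by subfamily (y axis), in panels for prp31, zop1 and sta1. Bars are 95% counting intervals and the grey band spans a ratio of 1.2 either way. SCL28 lies beyond it in prp31 and sta1 but is not counted, since the rule adds 1 to each FPKM. In zop1 GRP8 lies farthest to the left at 0.610 and RS31a farthest to the right at 1.42.

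GRP8 and GRP7 encode glycine-rich RNA-binding proteins under control of the circadian clock. Each binds its own and the other's pre-mRNA and shifts it to a spliced form that NMD degrades. GRP8 (AT4G39260, chromosome 4, 18273829 to 18275216, minus strand, TAIR10.1) showed the largest difference from the wild type of any member. It had 126 FPKM in prp31, 73.8 FPKM in zop1, 95.8 FPKM in sta1 and 121 FPKM in the wild type. The prp31 and wild type libraries were thus high, sta1 lay between, and zop1 was lowest. The ratio to the wild type was 0.610 in zop1 (95% exact binomial counting interval 0.564 to 0.659), 0.793 in sta1 (0.739 to 0.849) and 1.04 in prp31 (0.979 to 1.11). Such intervals hold counting error alone and leave out the spread between plants. GRP7 (AT2G21660, chromosome 2, 9265084 to 9266557, minus strand) had 40.0 FPKM in prp31, 35.5 FPKM in zop1, 36.4 FPKM in sta1 and 40.0 FPKM in the wild type. It also lay below the wild type in zop1 and sta1, with ratios of 0.888 (0.811 to 0.971) and 0.910 (0.833 to 0.993), neither past 1.2-fold. GRP8 was therefore 3.14 times GRP7 in prp31, 2.08 times in zop1, 2.63 times in sta1 and 3.02 times in the wild type. The coding sequences of the pair were 78.6% identical and shared no run longer than 39 nt, so reads longer than that run can tell the pair apart, and the read length is not stated.

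The promoters of this pair are shown because GRP7 is known to be driven by the clock through the evening element, a short motif of evening-phased genes. The sequences are the 250 nt before the annotated start in the Columbia reference (RefSeq, TAIR10.1), 5′ to 3′ along the gene, at chr4:18275217-18275466, minus strand for GRP8 and chr2:9266558-9266807, minus strand for GRP7. Capitals mark the evening element AAATATCT and the site II motif TGGGCC on either strand, and no match overlaps another.
GRP8: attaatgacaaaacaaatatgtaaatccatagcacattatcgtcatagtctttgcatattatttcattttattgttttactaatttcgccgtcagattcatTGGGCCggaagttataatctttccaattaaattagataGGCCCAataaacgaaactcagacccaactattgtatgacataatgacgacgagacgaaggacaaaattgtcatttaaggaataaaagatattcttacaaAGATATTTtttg
GRP7: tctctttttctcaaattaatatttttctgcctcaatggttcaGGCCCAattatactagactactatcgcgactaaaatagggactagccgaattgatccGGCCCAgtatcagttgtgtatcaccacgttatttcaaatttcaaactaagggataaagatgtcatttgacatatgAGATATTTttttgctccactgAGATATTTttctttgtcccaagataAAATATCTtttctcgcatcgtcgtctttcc
GRP8 held 1 evening element, starting 12 nt before the annotated start, and GRP7 held 3, starting 76, 55 and 30 nt before it. Each promoter held 2 site II motifs. Over 27443 promoters of this length the evening element was present in 4.79% and the site II motif in 13.7%. Over the 18630 of them whose gene had a mean of at least 1 FPKM the shares were 4.90% and 16.7%. Of the 33 members, 4 held the evening element (RS2Z33, GRP7, GRP8 and RBP47C) and 17 held the site II motif, a motif common in genes of growth and protein synthesis. The G-box CACGTG was in 2 members (SR34b and RS31) and in 6.49% of promoters, or 7.43% of those of expressed genes. The telo box AAACCCTA was in 2 members (RBP45C and RBP47B) and in 4.49% of promoters, or 3.46% of those of expressed genes. A match is a run of letters and not a shown binding site.

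Core clock genes were read beside GRP7 and GRP8, which the clock is known to control. Of 13 listed clock genes 12 had a mean of at least 1 FPKM. In zop1 ELF3, a member of the evening complex, was 1.2-fold higher, and PRR7 and LNK2 were 1.2-fold lower. Over all loci 14.3% were higher and 15.1% lower there. LNK2, a coactivator of clock genes, had 231 FPKM in prp31, 160 FPKM in zop1, 210 FPKM in sta1 and 210 FPKM in the wild type. PRR7, a repressor that acts in the day, had 38.0 FPKM in prp31, 27.6 FPKM in zop1, 33.5 FPKM in sta1 and 33.9 FPKM in the wild type. Both genes were lowest in zop1. Of the 12 clock genes, 6 lay above the wild type value in zop1 and 6 below, with a median log2 difference of 0.013. In prp31 and in sta1 LHY and ELF4 were 1.2-fold higher and none was lower. Over all loci 5.89% were higher in prp31 and 9.65% in sta1, and 7.92% and 17.6% were lower. LHY, a morning repressor, had 94.1 FPKM in prp31, 72.4 FPKM in zop1, 90.5 FPKM in sta1 and 70.7 FPKM in the wild type. CCA1, its closest relative, had 112 FPKM in prp31, 122 FPKM in zop1, 120 FPKM in sta1 and 122 FPKM in the wild type. The part of clock phase in the GRP8 values was not tested.

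All 3 genes of polypyrimidine tract-binding proteins had their highest value in zop1, and 1 of them passed 1.2-fold there. Of all members 17 were highest in zop1, and the share of all loci was not taken. PTB1 and PTB2 are close relatives that repress exon use and regulate their own transcripts, and PTB3 is the more distant member. PTB2 (AT5G53180, chromosome 5, 21568131 to 21571904, minus strand) had 13.4 FPKM in prp31, 17.6 FPKM in zop1, 15.0 FPKM in sta1 and 13.0 FPKM in the wild type. PTB1 had 13.1 FPKM in prp31, 15.9 FPKM in zop1, 13.5 FPKM in sta1 and 13.3 FPKM in the wild type. PTB3 had 36.2 FPKM in prp31, 42.1 FPKM in zop1, 34.7 FPKM in sta1 and 37.0 FPKM in the wild type. In prp31 the counting interval of the ratio to the wild type spanned 1 for each of the 3 genes. The ratio of PTB2 to the wild type was 1.35 in zop1 (1.23 to 1.49), 1.15 in sta1 (1.05 to 1.27) and 1.03 in prp31 (0.936 to 1.13). In zop1 the log2 difference was 0.25 for PTB1, just under 1.2-fold, and the ratio was 1.14 for PTB3 (1.07 to 1.201). The 3 genes together summed to 62.6 FPKM in prp31, 75.6 FPKM in zop1, 63.3 FPKM in sta1 and 63.3 FPKM in the wild type.

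RBP45, RBP47 and UBP1 proteins bind U-rich RNA, which plant introns are rich in. RBP45A had 39.8 FPKM in prp31, 39.3 FPKM in zop1, 45.0 FPKM in sta1 and 35.9 FPKM in the wild type. It was highest in sta1, where the ratio to the wild type was 1.25 (1.18 to 1.33), and its ratio in prp31 was 1.11 (1.05 to 1.17). RBP45C had between 61.2 FPKM in prp31 and 68.0 FPKM in zop1, and neither it nor RBP45B passed 1.2-fold. RBP47B, a protein that gathers in stress granules, had 19.3 FPKM in prp31, 24.6 FPKM in zop1, 17.3 FPKM in sta1 and 21.9 FPKM in the wild type. Its mutants lay on both sides of the wild type: the ratio was 0.791 in sta1 (0.734 to 0.851), 0.881 in prp31 (0.823 to 0.942) and 1.12 in zop1 (1.05 to 1.203). RBP47A, its closest relative, had 42.5 FPKM in prp31, 44.4 FPKM in zop1, 42.5 FPKM in sta1 and 40.3 FPKM in the wild type. The quotient of RBP47A over RBP47B was therefore 2.21 in prp31, 1.81 in zop1, 2.46 in sta1 and 1.84 in the wild type.

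RBP47C had 25.5 FPKM in prp31, 23.1 FPKM in zop1, 25.2 FPKM in sta1 and 24.9 FPKM in the wild type. Its values are uncertain, because it is 94.7% identical in coding sequence to RBP47C' and shares a run of 116 nt with it. RBP47C', which is not a member, had 13.6 FPKM in prp31, 16.7 FPKM in zop1, 14.5 FPKM in sta1 and 12.9 FPKM in the wild type. The pair ran in opposite directions in zop1, and their sum was 39.1 FPKM in prp31, 39.9 FPKM in zop1, 39.7 FPKM in sta1 and 37.8 FPKM in the wild type. Among pairs of members within a subfamily the longest shared coding run was 63 nt, between RBP47A and RBP47B, and then 60 nt, between UBP1A and UBP1C. Pairs across subfamilies were not compared.

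All 3 UBP1 genes lay below the wild type in zop1 and in sta1, and none passed 1.2-fold. In Nicotiana plumbaginifolia UBP1 is known to raise the splicing of weak introns. UBP1B had 48.8 FPKM in prp31, 45.9 FPKM in zop1, 45.8 FPKM in sta1 and 54.8 FPKM in the wild type, so the wild type library was the highest. The ratio to the wild type was 0.890 in prp31 (0.852 to 0.929), 0.836 in zop1 (0.797 to 0.877) and 0.835 in sta1 (0.797 to 0.875). UBP1C had 54.5 FPKM in prp31, 47.4 FPKM in zop1, 53.1 FPKM in sta1 and 56.3 FPKM in the wild type, with a ratio of 0.841 in zop1 (0.801 to 0.884). UBP1A, the most abundant of them, had 79.8 FPKM in prp31, 71.5 FPKM in zop1, 71.2 FPKM in sta1 and 74.6 FPKM in the wild type. UBP1A was above the wild type in prp31 alone. The sum of the 3 genes was 183 FPKM in prp31, 165 FPKM in zop1, 170.1 FPKM in sta1 and 186 FPKM in the wild type.

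Within the SR-type genes the RSZ subfamily has a zinc knuckle between its RNA recognition motif and its RS domain. All 3 of its genes lay above the wild type in zop1 and sta1, with RSZ22a past 1.2-fold in both. In sta1 the intervals of the ratio spanned 1 for RSZ21 (0.926 to 1.12) and RSZ22 (0.962 to 1.13). RSZ22a (AT2G24590, chromosome 2, 10449631 to 10451184, plus strand) had 34.3 FPKM in prp31, 37.2 FPKM in zop1, 35.7 FPKM in sta1 and 28.8 FPKM in the wild type. All 3 mutant libraries were above the wild type and close to each other. The ratio was 1.19 in prp31 (1.10 to 1.29), 1.29 in zop1 (1.19 to 1.40) and 1.24 in sta1 (1.14 to 1.34), and these ratios share the wild type value. In prp31 it passes 1.2-fold with median-of-ratios scaling, at a log2 difference of 0.27. Its close relative RSZ22 had 35.2 FPKM in prp31, 36.8 FPKM in zop1, 35.2 FPKM in sta1 and 33.8 FPKM in the wild type. RSZ22a was thus 0.972 times RSZ22 in prp31, 1.01 times in zop1, 1.01 times in sta1 and 0.854 times in the wild type. RSZ21 had 16.0 FPKM in prp31, 19.5 FPKM in zop1, 16.6 FPKM in sta1 and 16.3 FPKM in the wild type, so only its zop1 library stood off, with a ratio of 1.19 (1.09 to 1.31).

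The promoter of RSZ22a, the SR-type gene past 1.2-fold in both zop1 and sta1, is shown with that of RS2Z33, the SR-type gene that was lower in sta1. They lie at chr2:10449381-10449630, plus strand and at chr2:15672701-15672950, minus strand (RefSeq, TAIR10.1), and capitals mark the same motifs as above.
RSZ22a: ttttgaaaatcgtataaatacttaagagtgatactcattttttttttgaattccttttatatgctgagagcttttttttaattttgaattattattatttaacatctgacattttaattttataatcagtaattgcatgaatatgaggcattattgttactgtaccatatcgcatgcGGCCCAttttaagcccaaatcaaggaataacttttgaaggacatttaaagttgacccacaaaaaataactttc
RS2Z33: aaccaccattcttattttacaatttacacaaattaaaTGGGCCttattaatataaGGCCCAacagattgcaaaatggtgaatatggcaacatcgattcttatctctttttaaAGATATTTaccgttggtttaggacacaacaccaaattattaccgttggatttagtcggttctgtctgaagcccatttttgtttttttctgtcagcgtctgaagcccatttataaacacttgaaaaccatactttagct
RSZ22a held 1 site II motif, starting 73 nt before the annotated start, and no evening element. RS2Z33 held 2 site II motifs and 1 evening element, which started 138 nt before the annotated start.

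RS2Z33 and RS2Z32 form the RS2Z subfamily, which is particular to plants and carries a pair of zinc knuckles. RS2Z33 (AT2G37340, chromosome 2, 15670147 to 15672700, minus strand) had 58.0 FPKM in prp31, 61.7 FPKM in zop1, 52.8 FPKM in sta1 and 65.2 FPKM in the wild type. RS2Z32 had 56.1 FPKM in prp31, 56.4 FPKM in zop1, 59.4 FPKM in sta1 and 53.6 FPKM in the wild type. The wild type library was the highest of the 4 for RS2Z33 and the lowest for RS2Z32. The ratio of RS2Z33 to the wild type was 0.810 in sta1 (0.767 to 0.855), 0.889 in prp31 (0.846 to 0.935) and 0.945 in zop1 (0.896 to 0.997). In sta1 the log2 difference of −0.30 drops under 1.2-fold when libraries are scaled by the median of ratios (−0.24) or the upper quartile (−0.26). RS2Z33 was 1.03 times RS2Z32 in prp31, 1.09 times in zop1, 0.889 times in sta1 and 1.22 times in the wild type, values that no library scaling can move. An antisense RNA gene is annotated over 852 nt of RS2Z33, and its reads cannot be told apart from those of RS2Z33 if the libraries were unstranded.

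**Figure D4:**
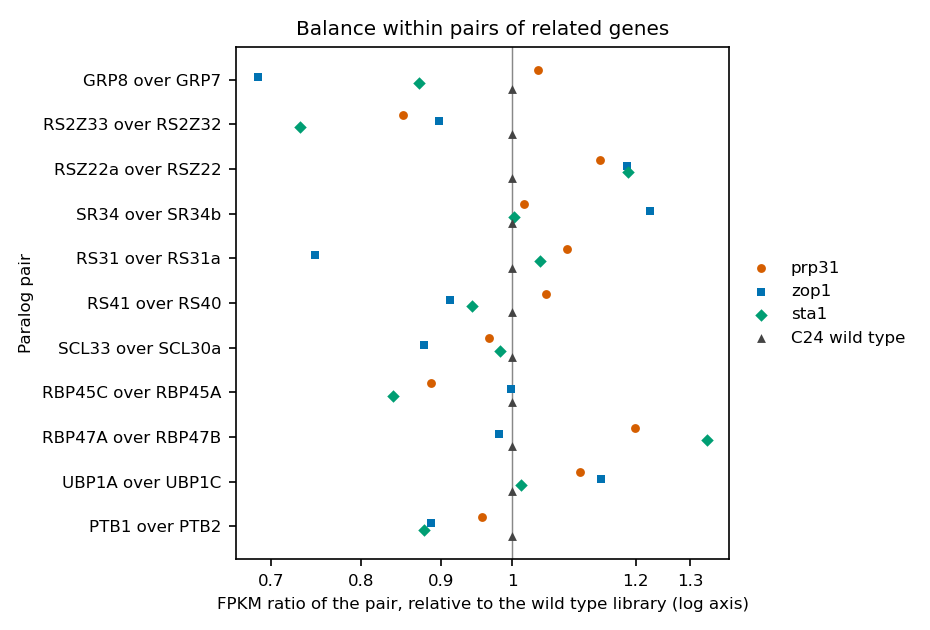
FPKM ratio within 11 pairs of related genes (y axis), each divided by the same ratio in the wild type library (x axis, log scale), with 1 point per library. In sta1 the point of RS2Z33 over RS2Z32 lies to the left and that of RBP47A over RBP47B to the right, and in zop1 GRP8 over GRP7 lies farthest to the left.

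The RS subfamily is particular to plants and carries 2 RNA recognition motifs. RS31a (AT2G46610, chromosome 2, 19136566 to 19138762, minus strand) had 4.71 FPKM in prp31, 7.56 FPKM in zop1, 4.94 FPKM in sta1 and 5.31 FPKM in the wild type. Only zop1 stood off, with a ratio to the wild type of 1.42 (1.13 to 1.80) on an estimated 161 reads in zop1 and 137 reads in the wild type. Its interval is the widest of the members past 1.2-fold. An antisense RNA gene is annotated over 491 nt of RS31a, so its reads carry the same doubt as those of RS2Z33. RS41 and UBP1C are overlapped on the opposite strand by other genes over 656 and 233 nt. RS31, a relative whose splicing is known to respond to light, had 28.0 FPKM in prp31, 31.1 FPKM in zop1, 28.3 FPKM in sta1 and 29.2 FPKM in the wild type. RS40 had 18.1 FPKM in prp31, 21.3 FPKM in zop1, 19.3 FPKM in sta1 and 18.9 FPKM in the wild type, and RS41 stayed between 44.8 FPKM in sta1 and 47.8 FPKM in zop1. All 4 RS genes had their highest value in zop1, and 1 passed 1.2-fold. In zop1 the interval of the ratio to the wild type spanned 1 for RS31 (0.986 to 1.15) and RS41 (0.973 to 1.09). Since 17 members were highest in zop1 and the share of all loci was not taken, this is not read as a trait of the subfamily.

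SR45, a homolog of the human protein RNPS1 with an RS domain on each side of its RNA recognition motif, had 53.5 FPKM in prp31, 63.1 FPKM in zop1, 53.0 FPKM in sta1 and 54.6 FPKM in the wild type. Its ratio to the wild type was 1.16 in zop1 (1.10 to 1.21), under 1.2-fold, and the prp31 and sta1 intervals spanned 1. None of the SR subfamily, the plant counterpart of human SRSF1, passed 1.2-fold. SR30, the steadiest member by its ratio of highest to lowest library, had 46.8 FPKM in prp31, 47.3 FPKM in zop1, 45.2 FPKM in sta1 and 45.4 FPKM in the wild type. SR34 ranged from 46.3 FPKM in prp31 to 50.6 FPKM in zop1, and SR34a from 44.5 FPKM in sta1 to 47.6 FPKM in prp31. SR34b was the exception in level, with 7.84 FPKM in prp31, 7.12 FPKM in zop1, 8.20 FPKM in sta1 and 8.48 FPKM in the wild type.

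The SC and SCL subfamily, of SC35 and its plant-specific relatives, had no gene past 1.2-fold. SCL30 had 36.3 FPKM in prp31, 36.5 FPKM in zop1, 36.5 FPKM in sta1 and 40.0 FPKM in the wild type. SCL33 had 33.8 FPKM in prp31, 35.3 FPKM in zop1, 35.6 FPKM in sta1 and 37.8 FPKM in the wild type. SC35 ranged from 28.7 FPKM in sta1 to 30.7 FPKM in the wild type. For these 3 genes every mutant library lay below the wild type library, which all comparisons share. The interval of the ratio spanned 1 for SC35 in prp31 and zop1 and for SCL33 in zop1 and sta1. SCL30a had 33.3 FPKM in prp31, 38.3 FPKM in zop1, 34.4 FPKM in sta1 and 35.9 FPKM in the wild type. SCL28, a gene of the mitotic phase of the cell cycle, had 1.46 FPKM in prp31, 1.40 FPKM in zop1, 1.49 FPKM in sta1 and 1.18 FPKM in the wild type. With an estimated 42 reads of SCL28 in the wild type, all 3 of its intervals spanned 1, and a difference was not detectable at this depth. Its ratios of 1.24 in prp31 and 1.26 in sta1 pass 1.2-fold with a pseudocount of 0.1 or 0.01 in place of 1.

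With the mutants set directly against each other, the largest difference was that of GRP8 between prp31 and zop1. Between prp31 and zop1, GRP8 was 1.2-fold higher in prp31, where 12.7% of loci were higher, with a log2 difference of 0.76. RS31a, RSZ21, PTB1, PTB2 and RBP47B were 1.2-fold lower in prp31 than in zop1, where 15.0% of loci were lower, and their differences ran from −0.59 for RS31a to −0.27 for RSZ21 and PTB1. Between prp31 and sta1, GRP8 was the only member past 1.2-fold, higher in prp31 by 0.39 on the log2 scale, where 12.5% of loci were higher and 7.23% lower. Between zop1 and sta1, RS31a, PTB3 and RBP47B were 1.2-fold higher in zop1, where 15.7% of loci were higher. GRP8 was 1.2-fold lower in zop1 than in sta1, where 8.7% of loci were lower. RS31a differed by 0.53 on the log2 scale there, RBP47B by 0.48, PTB3 by 0.27 and GRP8 by −0.37. RSZ21, PTB1 and PTB3 drop under 1.2-fold with median-of-ratios scaling, at −0.25, −0.25 and 0.22, and PTB3 also does with upper-quartile scaling, at 0.24. No member reached 2-fold between any pair of mutants, where 1.99% of loci did between prp31 and zop1, 1.67% between prp31 and sta1 and 1.36% between zop1 and sta1.

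Other genes of the pathway were read from lists. Of 16 genes whose products modify, import or work beside SR proteins, 0 passed 1.2-fold in prp31. In zop1 3 were higher, MOS14, the importer of SR proteins, and the cyclophilin-type genes AT3G63400 and AT4G32420, and U2AF35B, a subunit that marks the end of the intron, was lower. MOS14 had 7.92 FPKM in prp31, 9.92 FPKM in zop1, 7.61 FPKM in sta1 and 7.81 FPKM in the wild type. In sta1 AT3G63400 was higher, and SRPK4 and AT5G22840, a pair of protein kinase genes, were lower. AT3G63400 had 20.9 FPKM in prp31, 24.1 FPKM in zop1, 21.5 FPKM in sta1 and 17.6 FPKM in the wild type, so all 3 mutants lay above the wild type. Of 7 genes of NMD and the exon junction complex, 0 passed 1.2-fold in any mutant. Over all loci the share past 1.2-fold was 13.8% for prp31, 29.4% for zop1 and 27.2% for sta1. With lists this short, the counts are not read as results about the lists.

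Of 13 other RNA-binding regulators, SR45a was 1.2-fold lower in prp31 and in sta1, and it is a stress-responsive relative of animal Tra2. SR45a had 20.5 FPKM in prp31, 23.3 FPKM in zop1, 20.8 FPKM in sta1 and 26.9 FPKM in the wild type. RZ-1A, a cold-responsive glycine-rich protein with a zinc finger, was the only gene past 2-fold in the lists of splicing and NMD genes. It had 8.78 FPKM in prp31, 9.01 FPKM in zop1, 4.47 FPKM in sta1 and 10.0 FPKM in the wild type. Only the sta1 library stood off, with a ratio to the wild type of 0.446. In zop1 RBP47C' and AT1G54380, annotated as a spliceosome protein-like gene, were 1.2-fold higher, and AT1G54380 was also higher in sta1. The shares of all loci past 1.2-fold are those given for the lists above, and 1.98% of loci passed 2-fold in sta1.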

How the data were processed

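Messenger RNA was measured in 4 seedling libraries, 1 per genotype, grouped by title and genotype label. The authors deposited 1 table of FPKM values per locus. TopHat2 2.0.12, Bowtie, Cuffdiff and Cufflinks 2.0.1 are named in the submitters' processing notes, with TAIR10 as genome build. What each tool did, its settings and whether libraries were stranded is not given in the sources used here. Gene structure, promoters and coding sequences came from the RefSeq annotation of TAIR10.1 (Columbia), in which all 33 members were matched by locus, whereas the plants were C24.

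Differences were taken on log2(FPKM + 1), a scale that shrinks the change of weakly expressed genes, with a rule of 1.2-fold and one of 2-fold. The rate of each rule was taken over 19240 loci whose mean was at least 1 FPKM. Ratios are of FPKM without a pseudocount. With 1 library per group no test was made. Library totals were estimated from low values, which are whole multiples of the worth of a read when 204 nt are taken off the transcript's length: between 58.7% and 63.1% of low values came out whole within 0.05 reads, against 10% by that tolerance alone. The totals gave exact binomial 95% intervals of ratios, from the shortest annotated transcript of each gene. The estimate was tested on simulated data, with whole reads drawn for loci of a single annotated transcript. The read estimates of members with several transcripts were not tested there. A value of 0 in the table need not be an absence, and 8190 loci were at 0 in every library.

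All members are named, and of the context lists the genes past 1.2-fold, with others for comparison. The members and lists were chosen with earlier results of these data known. Analyses used Python 3.11.15, pandas 2.3.3, NumPy 2.4.6, SciPy 1.17.1 and Biopython 1.88. Pseudocounts, filters, folds and library scalings were varied.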

Additional observations from a re-analysis of the deposited data

How the results depend on the processing

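No paired analysis was possible because each genotype had 1 library, and for the same reason no replicate could be left out. Pseudocounts of 0.1 and 0.01, median-of-ratios and upper-quartile scaling, other filters and other folds turned no called difference round. The count of members 1.2-fold higher in prp31, 0 as reported, was 1 with either smaller pseudocount (SCL28) and 1 with median-of-ratios scaling (RSZ22a, 0.27 on the log2 scale). At 1.5-fold 0 members were higher in zop1, against 3.31% of loci, and 0 in sta1, against 2.19%. At that fold 0 members were lower in sta1, against 4.05% of loci. At 1.3-fold in sta1 0 members were higher, against 5.39% of loci, and 0 were lower, against 9.65%. Of 20 differences past 1.2-fold, 9 against the wild type and 11 between mutants, 4 lost the call under at least 1 of the other pseudocounts and scalings: RS2Z33 in sta1, RSZ21 and PTB1 between prp31 and zop1, and PTB3 between zop1 and sta1. At a stricter fold 8 of the 20 remained at 1.3-fold and 3 at 1.5-fold, and a minimum mean of 10 FPKM leaves out RS31a, SCL28 and SR34b. GRP8 in zop1 stayed between −0.71 and −0.69, and in sta1 between −0.34 and −0.27. Subfamily medians near 0 changed sign under a scaling for SR and PTB in prp31, RS2Z in zop1, and SR, RS and SR45 in sta1. Members whose counting interval lay above 1 in prp31 numbered 5, and 8 with the longest annotated transcript, an alternative chosen after seeing the data. Those below 1 in prp31 numbered 7 with either transcript. In zop1 13 members lay above 1 and 9 below, and in sta1 7 lay above and 10 below. These counts were not taken over all loci. Depth limits SCL28 and RS31a most.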

Other observations

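RBP47A and ZOP1 lie next to each other on chromosome 1 on opposite strands, with 65 nt between them. RBP47A had 42.5 FPKM in prp31, 44.4 FPKM in zop1, 42.5 FPKM in sta1 and 40.3 FPKM in the wild type, while ZOP1 had 12.8 FPKM in prp31, 7.99 FPKM in zop1, 15.0 FPKM in sta1 and 14.1 FPKM in the wild type.

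Seed markers, fixed as a check on tissue, were low but uneven. The sum of CRA1, CRC and OLEO1, genes of seed storage proteins and oil bodies, was 5.92 FPKM in prp31, 1.08 FPKM in zop1, 4.59 FPKM in sta1 and 13.2 FPKM in the wild type.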
